A study of Mus musculus with 6 samples.

Results

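The 2 arrays described here hold the baseline transcriptome of B16 cells, a mouse melanoma line, kept in oxygen throughout. They were chosen by their titles, Normoxia and Normoxia +1h, and are 2 of the 6 arrays of a series on chronic and cyclic hypoxia in these cells. All cells were grown in alpha MEM with 10% fetal calf serum and, per the labels, were moved to serum-free medium 2 h before the exposure. Normoxia +1h cells were collected 1 h after a 3 h normoxic period, so that they had spent 6 h without serum, and Normoxia cells were collected at the end of the 3 h, after 5 h without serum. The other 4 arrays were from cells after 3 h of chronic hypoxia (below 1% oxygen) or 3 cycles of 1 h of hypoxia with 30 min breaks, each with and without a last hour of reoxygenation. Neither normoxia group carried a drug or a genetic change according to the labels, and B16 is an established line grown in culture, without the stroma, vessels and immune cells of a tumour.

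Each array received labelled cRNA from 5 µg of total RNA, and each group had 1 array. A difference between the Normoxia +1h and Normoxia arrays therefore has no replicate error of its own, no p-value is given for it, and it holds the effect of the extra hour, any difference between dishes and the noise of 2 hybridisations, which cannot be told apart. The labels do not say whether the arrays came from separate cultures, and in RNA from a whole dish fewer cells of a kind and less RNA per cell cannot be told apart either. Values are signals in the scaled intensity units of the array software, and the mean of all probe sets after trimming 2% at each end was 100 on each array to 3 digits. Ratios are log2 of Normoxia +1h over Normoxia, with signals under 2.1 set to 2.1, so a ratio of 1 is a doubling. After a filter on dim probe sets 7746 genes were described, each by the probe set with the highest mean over the 6 arrays, which for a few genes is not the brightest on these 2, and 3590 of these had a mean signal of 100 or more over the 2 arrays and are called bright.

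Melanocytes and melanomas make melanin in melanosomes, organelles related to lysosomes. Tyrosinase starts the pathway from tyrosine, and its relatives TYRP1 and DCT act on later intermediates, while PMEL forms the fibrils on which pigment is laid down. The factor MITF, together with SOX10 and PAX3, controls these genes by binding short E-box sequences in their promoters. Serum supplies growth factors, lipids and metals, and its removal is known to end the signals that keep immediate-early genes on and to let FoxO factors enter the nucleus. Messages differ widely in lifetime, and those of ribosomal proteins are long-lived, whereas those of immediate-early genes last only a short time.

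The highest signals in oxygenated B16 cells came from genes of protein synthesis, the respiratory chain, the cytoskeleton and pigment, among others. Among probe sets that named 1 gene, the brightest was that of Lgals1, which encodes the sugar-binding protein galectin-1, with a signal of 6246 in Normoxia +1h and 5802 in Normoxia. Next came Rpl41 (a ribosomal protein) with 5650 in Normoxia +1h and 4940 in Normoxia, and the pigment enzyme gene Dct with 5488 in Normoxia +1h and 5051 in Normoxia. Ribosomal protein genes made up 16 of the 30 brightest genes and 35 of the 100 brightest, of 44 that were measured. Respiratory chain genes made up 2 of the 30 and 11 of the 100, and pigment genes 2 and 4. The translation elongation factor Eef1a1 gave 5415 in Normoxia +1h and 4778 in Normoxia. A signal also depends on how well a probe set binds, and ribosomal protein genes have many near-identical copies in the genome, so this order is one of signals and not of transcripts per cell. Control probe sets and those naming several genes or none were not ranked. The highest signal of any probe set in Normoxia +1h was 6266, and a Gapdh control had 4887 in Normoxia +1h and 4307 in Normoxia. Fth1 (ferritin heavy chain) ranked 32 on the probe set used, though another of its probe sets was brighter on these arrays.

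Among the 14 of the 30 brightest genes that were not ribosomal proteins were genes of several known roles. Tyrp1, the second pigment gene among the 30, had 4464 in Normoxia +1h and 3906 in Normoxia. Ptgds, the prostaglandin D synthase of brain and melanocytic cells, had 4503 in Normoxia +1h and 4016 in Normoxia. Mt1, one of the metallothioneins that bind zinc and copper, had 4880 in Normoxia +1h and 3734 in Normoxia. The constitutive chaperone Hspa8 had 4347 in Normoxia +1h and 4316 in Normoxia, the smallest difference among the 30 on the probe sets used. Its other probe sets disagreed, with log2 ratios of -0.82 (797 in Normoxia +1h and 1407 in Normoxia), 0.19 and -0.08. Gstp1, a glutathione transferase, had 4463 in Normoxia +1h and 3884 in Normoxia. Actb, the cytoplasmic actin, had 4434 in Normoxia +1h and 3788 in Normoxia. The rest were Tpt1, Uqcrb and Cox7a2 of the respiratory chain, the actin-binding Tmsb10 and the nucleoside diphosphate kinase Nme2.

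All 30 genes had the higher signal in Normoxia +1h, with a median log2 ratio of 0.16 and a range from 0.01 for Hspa8 to 0.39 for Mt1. That shared direction depended on the scaling. After quantile normalization 17 of the 30 were higher in Normoxia +1h, with a median of 0.01. Other bright probe sets of these genes were higher in Normoxia +1h in 19 of 28 cases. The Normoxia array had the lowest signal of all 6 arrays for 23 of the 30. Their signals were otherwise steady over the series, and the highest of the 6 arrays was at most 1.52-fold above the lowest, with a median of 1.37-fold.

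**Figure D1:**
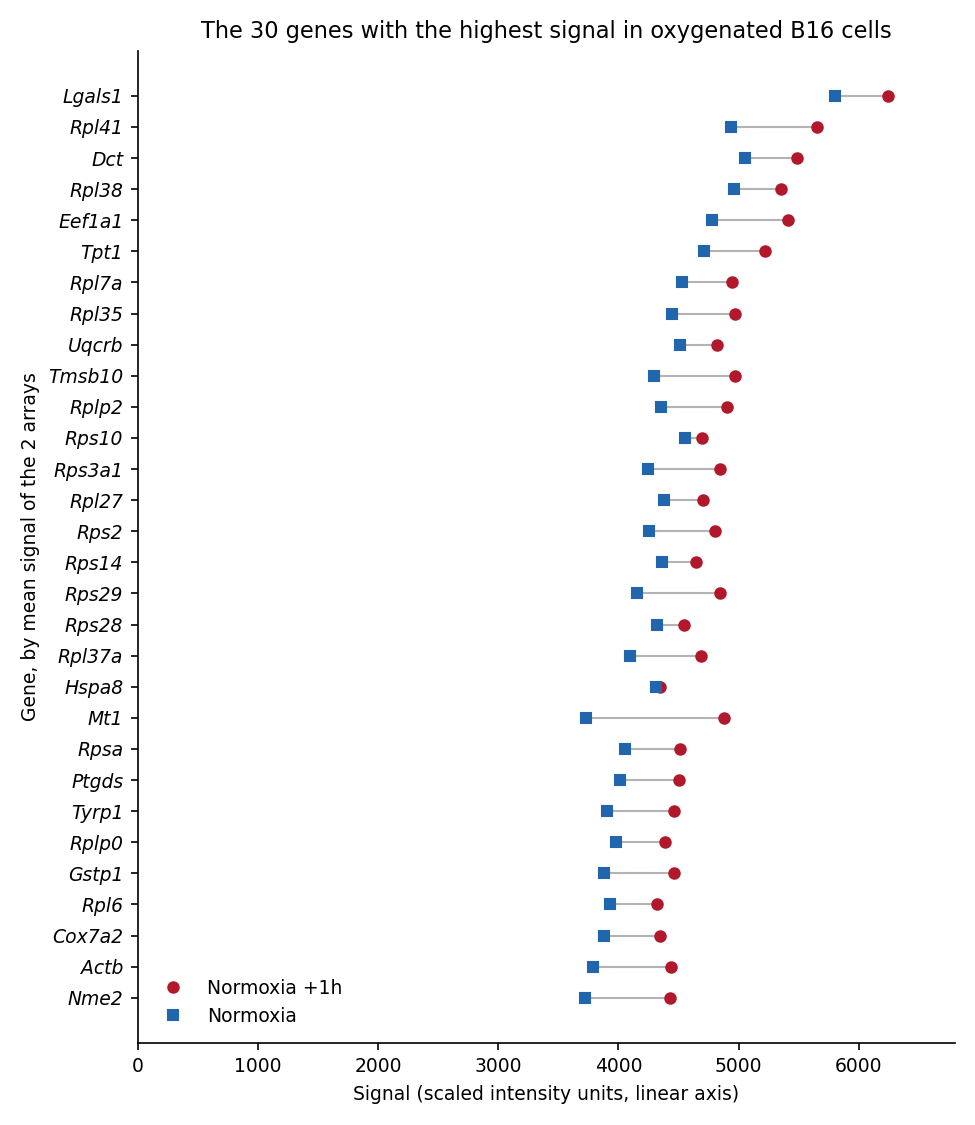
Signals of the 30 brightest genes, in scaled intensity units on a linear axis, with circles for Normoxia +1h and squares for Normoxia. Every circle lies right of its square, by a median log2 ratio of 0.16, with the smallest gap at Hspa8 and the widest at Mt1.

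The label of a pigmented melanoma line was checked against marker genes. Of 21 listed pigment and melanosome genes 17 were on the array, all 17 passed the filter and 13 were bright. Their summed signal was 22816 in Normoxia +1h and 20570 in Normoxia. Tyr, the rate-limiting enzyme of melanin synthesis, had 2223 in Normoxia +1h and 1981 in Normoxia, while its dimmer probe sets gave log2 ratios of -0.12 and -0.28. Pmel had 3782 in Normoxia +1h and 3420 in Normoxia, and Gpnmb, a related melanosome glycoprotein, had 3223 in Normoxia +1h and 2657 in Normoxia. The transporters that feed or ventilate the melanosome were lower in the order of signals: Slc45a2 had 1479 in Normoxia +1h and 1280 in Normoxia, and Oca2 had 456 in Normoxia +1h and 460 in Normoxia.

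Of 14 listed lineage factors, all on the array, 9 passed the filter and 6 were bright, and the median of their mean signals was 36.3. Among them Mitf ranked 95 of all genes by signal, with 2568 in Normoxia +1h and 2366 in Normoxia. Sox10 had 1125 in Normoxia +1h and 934 in Normoxia. Pax3 had 165 in Normoxia +1h and 139 in Normoxia, and Mc1r, the receptor for the melanocyte-stimulating hormone, had 198 in Normoxia +1h and 179 in Normoxia. The receptors of the early lineage were close to the floor: Kit had 4.6 in Normoxia +1h and 7.5 in Normoxia, and Ednrb had 2.9 in Normoxia +1h and 4.6 in Normoxia. In melanosome transport, Rab38 was bright at 1684 in Normoxia +1h and 1632 in Normoxia, while Rab27a, which links melanosomes to Mlph and Myo5a, had 14.0 in Normoxia +1h and 15.1 in Normoxia.

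Markers of other cell types were dim. The 11 fibroblast markers summed to 51.8 in Normoxia +1h and 71.4 in Normoxia, and the highest, Mmp2, had a mean of 21.0. The 10 immune cell markers on the array summed to 125 in Normoxia +1h and 131 in Normoxia, and the highest, Cd68, had a mean of 33.2. The 10 keratinocyte markers summed to 32.5 in Normoxia +1h and 57.4 in Normoxia. The 9 endothelial markers summed to 221 in Normoxia +1h and 240 in Normoxia, most of it from Eng (endoglin), whose mean was 196. Defining members lay at or near the floor: Ptprc (CD45) had 2.06 in Normoxia +1h and 0.372 in Normoxia, Pecam1 (CD31) had 1.48 in Normoxia +1h and 0.896 in Normoxia, and Dcn (decorin) had 0.788 in Normoxia +1h and 0.709 in Normoxia. Summed signals of the same lists in the other 4 arrays ran from 51.4 to 78.5 for fibroblasts and from 106 to 120 for immune cells.

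**Figure D2:**
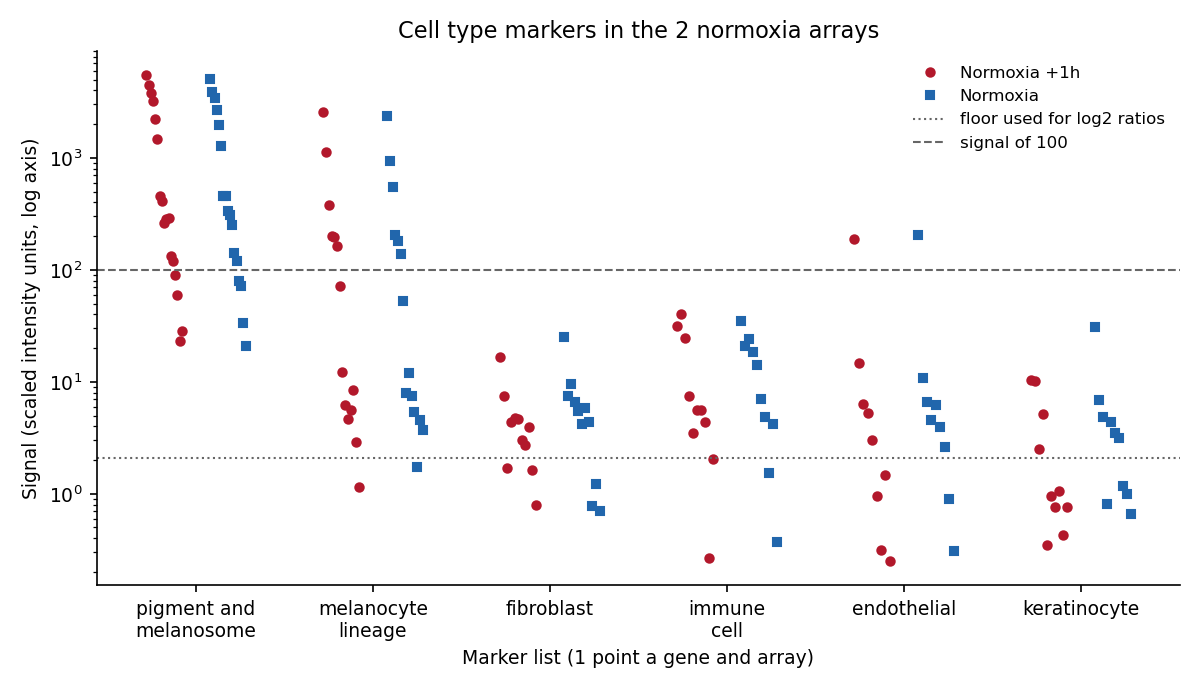
Signals of single marker genes on a log axis, by list, with circles for Normoxia +1h left of squares for Normoxia. Means of 100 or more are found for 13 of 17 pigment genes (Dct has a mean of 5269) and 6 of 14 lineage genes (Mitf has 2467). The markers of other cell types lie under 100 apart from Eng, with a mean of 196.

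The genes named for melanoma and growth gave a like picture on both arrays. Ccnd2 (cyclin D2) had 2667 in Normoxia +1h and 2486 in Normoxia, and Ccnd1 (cyclin D1) had 1255 in Normoxia +1h and 1100 in Normoxia. Cdkn1a, the p21 inhibitor of cyclin-dependent kinases, had 1004 in Normoxia +1h and 1009 in Normoxia. The locus for p16 and p19ARF was near the floor: Cdkn2a had 2.33 in Normoxia +1h and 5.64 in Normoxia, and Cdkn2b had 1.95 in Normoxia +1h and 0.994 in Normoxia. In class I antigen presentation, B2m, the shared light chain, had 2633 in Normoxia +1h and 2487 in Normoxia, whereas the heavy chain H2-K1 had 318 in Normoxia +1h and 278 in Normoxia. The peptide transporter gene Tap1 had 19.9 in Normoxia +1h and 14.9 in Normoxia, and Tap2 had 12.2 on both arrays.

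Promoter sequences are shown for the 3 enzymes of melanin synthesis, since these genes were bright in both arrays and are classical targets of MITF. RefSeq (GRCm38.p6) gave promoters, 250 bases before to 50 after a start, for 14 of the 17 measured pigment genes, 16 promoters in all. The E-box searched was CATGTG on both strands. It was present in 8 of the 16 promoters, from 7 genes, whereas 14.2% of all 32851 promoters hold it at least once. Those 7 genes were Dct, Tyr, Tyrp1, Oca2, Trpm1, Slc7a11 and Hps1, of which the last 3 were not bright. The promoters are those of Tyr at chr7:87493463-87493762 (minus strand), Tyrp1 at chr4:80833963-80834262 (plus strand) and Dct at chr14:118052197-118052496 (minus strand), with 1, 1 and 2 matches, given 5′ to 3′ with each E-box in capitals:
Tyr: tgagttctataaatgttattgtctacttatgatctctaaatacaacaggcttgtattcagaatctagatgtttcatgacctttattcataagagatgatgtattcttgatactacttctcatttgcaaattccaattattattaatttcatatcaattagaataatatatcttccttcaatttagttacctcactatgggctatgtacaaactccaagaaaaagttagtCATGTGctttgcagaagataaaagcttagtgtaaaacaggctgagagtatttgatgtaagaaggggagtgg
Tyrp1: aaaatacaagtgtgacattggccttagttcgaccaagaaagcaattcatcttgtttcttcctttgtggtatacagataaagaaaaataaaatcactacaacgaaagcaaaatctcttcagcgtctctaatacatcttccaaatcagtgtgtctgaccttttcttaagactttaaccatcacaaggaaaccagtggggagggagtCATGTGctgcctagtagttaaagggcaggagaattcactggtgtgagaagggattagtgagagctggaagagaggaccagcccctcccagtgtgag
Dct: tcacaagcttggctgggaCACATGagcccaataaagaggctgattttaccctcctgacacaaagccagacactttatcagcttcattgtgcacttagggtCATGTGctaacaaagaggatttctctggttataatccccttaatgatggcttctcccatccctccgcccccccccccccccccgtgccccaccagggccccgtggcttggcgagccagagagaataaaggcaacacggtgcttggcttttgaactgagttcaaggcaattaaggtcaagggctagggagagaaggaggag
These matches are letters in a window, and binding was not measured.

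The extra hour without serum came with small differences at most genes. At 2-fold or more, 67 of 7746 genes (0.865%) were higher in Normoxia +1h and 145 (1.87%) were lower. Most of these were dim, and 59 of the higher and 122 of the lower genes had a mean signal under 25. Among the bright genes 18 of 3590 (0.501%) were 1.5-fold or more higher and 31 (0.864%) were 1.5-fold or more lower. Only Mrpl33 among them differed by 2-fold. The SD of the log2 ratio over all genes was 0.39, the smallest among the 15 possible pairs of the 6 arrays, the others ranging from 0.44 to 0.75. The correlation of the 2 normoxia arrays across genes was 0.981.

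The spread and the centre of the ratio both moved with the signal. Genes with a mean signal under 25 had a median log2 ratio of -0.14 with an SD of 0.70 over 1404 genes. Those from 25 to 100 had a median of -0.01 with an SD of 0.33 over 2752 genes. From 100 to 400 the median was 0.03 and the SD 0.23 over 2428 genes, and from 400 to 1600 the median was 0.05 and the SD 0.19 over 963 genes. The 199 genes of 1600 or more had a median of 0.11 with an SD of 0.13, and 78.9% of them were higher in Normoxia +1h. Quantile normalization brought that last median to 0.01, and a loess curve on signal brought it to 0.03. A log2 ratio of about 0.1 at a very bright gene is thus no larger than the shift between scalings, and the medians of gene lists are plotted under all 3 scalings.

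**Figure D3:**
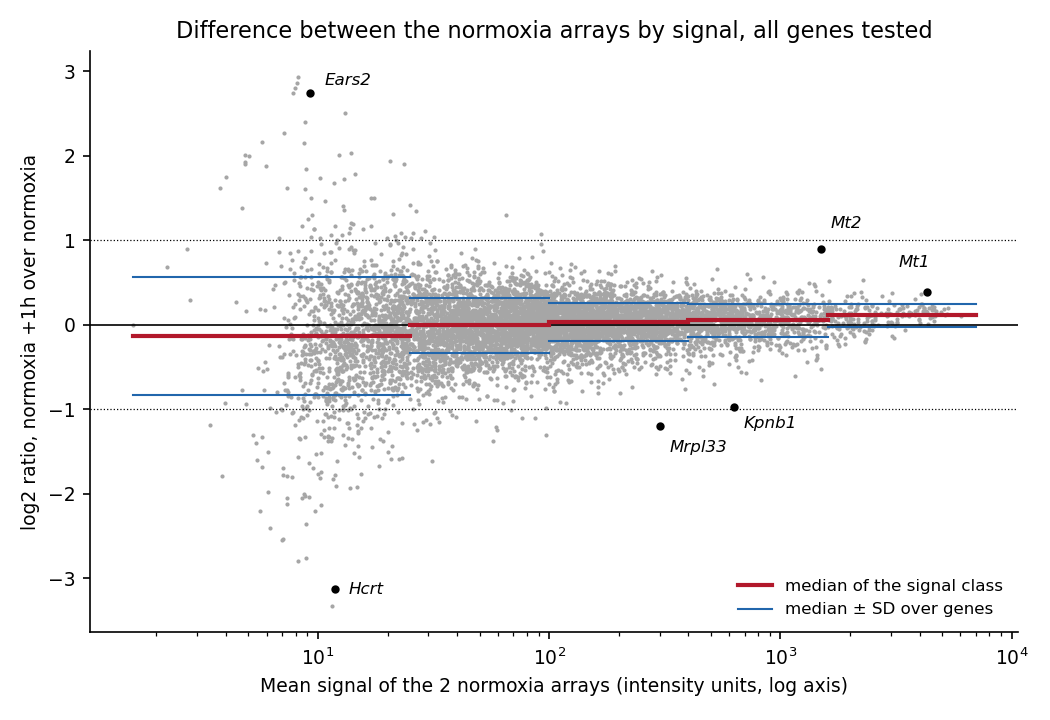
The log2 ratio of Normoxia +1h over Normoxia against mean signal (log axis) for 7746 genes, with the median of each signal class as a thick line, the median ± SD over genes as thin lines and dotted lines at 2-fold. The cloud narrows from an SD of 0.70 at signals under 25 to 0.13 at 1600 or more, and Mt2, Mrpl33 and Kpnb1 lie outside it among bright genes.

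The control probe sets bear on the same scaling. The 18 probe sets for hybridisation spikes, bacterial transcripts added to each sample, had a median log2 ratio of 0.06 and ranged from -0.27 to 0.39. The 24 probe sets for poly-A spikes had a median of 0.33, though only 5 of them had a signal of 100 or more in Normoxia, and those 5 ranged from -0.01 to 0.38. The 6 control probe sets for Actb and Gapdh ranged from 0.17 to 0.27. The 3′ to 5′ signal ratio, which goes up when RNA is broken, was 1.20 in Normoxia +1h and 1.24 in Normoxia for Actb, and 0.851 in Normoxia +1h and 0.799 in Normoxia for Gapdh.

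The metallothionein gene Mt2 had the highest log2 ratio among bright genes, and its relative Mt1 did not pass 1.5-fold. Mt2 had 1938 in Normoxia +1h and 1044 in Normoxia, a log2 ratio of 0.89 or 1.86-fold. Its signal in the other 4 arrays was 2915 to 4095, so that both normoxia arrays were the lowest of the 6 and Normoxia the lower of them. Mt1 had a log2 ratio of 0.39, which was 0.26 after quantile normalization and 0.29 after loess, and its other 4 arrays ran from 4828 to 5679. Metallothioneins buffer zinc and copper, and their genes are known to be switched on by metals, glucocorticoids and stress through MTF1 and other factors. Fth1, the ferritin heavy chain that stores iron, had probe sets that disagreed: one had 4544 in Normoxia +1h and 3535 in Normoxia, a log2 ratio of 0.36, and the other, brighter on these arrays, had 4530 in Normoxia +1h and 4337 in Normoxia, a log2 ratio of 0.06. In the last hour of the hypoxic regimes Mt2 had log2 ratios of 0.24 in chronic and 0.44 in cyclic hypoxia, on the side of the normoxia hour in both.

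The metal response element that MTF1 binds has the core TGCACNC or TGCGCNC, and the promoters of both genes were searched for it on both strands after their ratios had been seen. The Mt2 promoter at chr8:94172368-94172667 (plus strand) held 4 matches, and the Mt1 promoter at chr8:94178839-94179138 (plus strand) held 3. Among all promoters 1.97% held at least 3 and 0.517% held at least 4. They are shown 5′ to 3′ with the cores in capitals:
Mt2: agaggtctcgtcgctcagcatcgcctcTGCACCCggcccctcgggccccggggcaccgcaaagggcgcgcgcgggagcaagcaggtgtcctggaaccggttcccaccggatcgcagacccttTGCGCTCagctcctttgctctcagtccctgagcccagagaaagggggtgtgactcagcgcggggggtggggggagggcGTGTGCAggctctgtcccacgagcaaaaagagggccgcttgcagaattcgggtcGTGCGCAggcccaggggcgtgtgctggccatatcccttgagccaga
Mt1: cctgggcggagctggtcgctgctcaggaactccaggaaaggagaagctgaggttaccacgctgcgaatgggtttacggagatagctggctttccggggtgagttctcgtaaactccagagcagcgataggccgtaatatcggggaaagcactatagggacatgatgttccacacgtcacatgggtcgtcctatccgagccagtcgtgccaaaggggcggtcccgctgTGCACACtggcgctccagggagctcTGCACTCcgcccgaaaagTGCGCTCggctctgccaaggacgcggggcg
No metal level or MTF1 binding was measured.

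The other bright genes with the highest ratios were of mixed function. Golga2, the Golgi matrix protein GM130, had 127 in Normoxia +1h and 76.4 in Normoxia. Deptor, an inhibitor of mTOR, had 154 in Normoxia +1h and 93.6 in Normoxia, but its other probe sets gave log2 ratios of -0.03 and -0.18. Celf2, an RNA-binding splicing factor, had 651 in Normoxia +1h and 412 in Normoxia, and its other probe sets likewise gave -0.01 and -0.24. Gclm, the modifier subunit of the enzyme that starts glutathione synthesis, had 173 in Normoxia +1h and 111 in Normoxia. Creld2, an endoplasmic reticulum protein, had 337 in Normoxia +1h and 218 in Normoxia. The remaining members of the 12 highest were Abhd12, Specc1, Tfpt, Trrap, Ifrd1 and Tanc1, with log2 ratios of 0.64 to 0.70.

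The lowest bright ratio was that of Mrpl33, a protein of the mitochondrial ribosome, with 182 in Normoxia +1h and 419 in Normoxia, a log2 ratio of -1.21. The other 4 arrays lay between 128 and 241, and Normoxia stood alone above them. Kpnb1, which encodes importin beta and carries proteins into the nucleus, had 427 in Normoxia +1h and 836 in Normoxia, a log2 ratio of -0.97. Its other 3 probe sets gave -0.20, 0.61 and 0.02, so its probe sets disagreed. Tra2a, a splicing regulator, had 288 in Normoxia +1h and 489 in Normoxia. Pon2, a paraoxonase, had 147 in Normoxia +1h and 258 in Normoxia, and Nuf2, a kinetochore protein, had 77.6 in Normoxia +1h and 130 in Normoxia. Pdcl had a log2 ratio of -0.91 on the probe set used and 0.30 on another. Mtfr1 and Tcf7l1, whose other probe sets gave -0.13 and -0.02, and Rbm15, Pls3, Slc35a5 and Hnrnph2 completed the 12 lowest, with log2 ratios of -0.93 to -0.74.

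In most of these genes it was the Normoxia array that stood apart. Of the 31 bright genes 1.5-fold or more lower in Normoxia +1h, Normoxia was the highest of the 6 arrays in 27 and Normoxia +1h the lowest in 2. Those 2 were Rbm15 and Tcf7l1. Of the 18 that were 1.5-fold or more higher, Normoxia was the lowest of the 6 arrays in 12 and Normoxia +1h the highest in 4. These genes were chosen by the ratio that holds the Normoxia value, so a count of this kind is a description of them. Signals under 400 were found for 26 of the 31 and 15 of the 18.

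**Figure D4:**
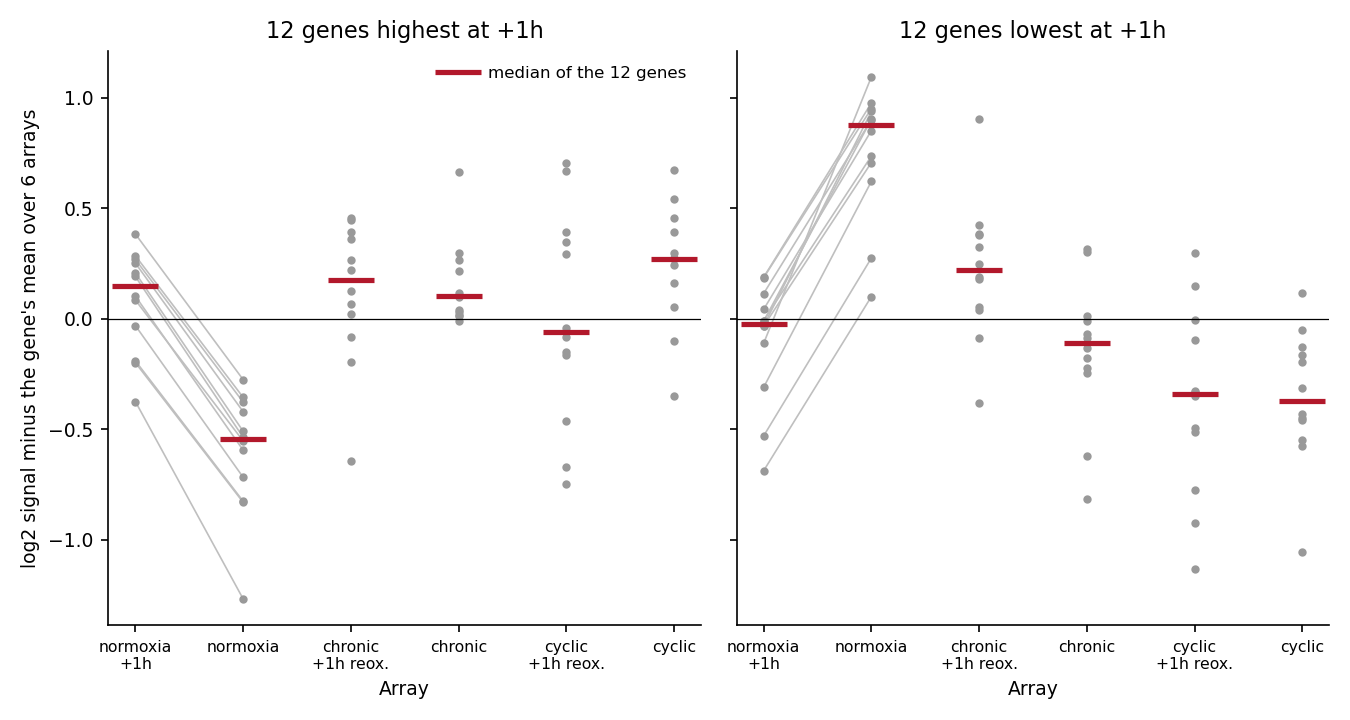
Signals of the 12 bright genes with the highest (left) and lowest (right) log2 ratio in all 6 arrays, each as log2 signal minus the gene's mean over the 6 arrays, with the median of 12 genes as a bar. In both panels the median of the Normoxia array lies farthest from 0, and that of Normoxia +1h lies nearer to 0.

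Where a gene had several bright probe sets, their ratios were only weakly related. There were 983 genes with at least 2 probe sets of 100 or more, and the log2 ratios of the 2 brightest had a correlation of 0.11 across these genes, which share both arrays and are not replicates. In 9 of them the first probe set was 1.5-fold or more off, and the other lay on the same side of 0 in 4 and passed 1.5-fold the same way in 0. Of the 49 genes with either probe set 1.5-fold or more off, 0 had both off the same way.

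The last hour was also measured in the hypoxic regimes, on other arrays, where it was an hour of reoxygenation after chronic or cyclic hypoxia. Among the same 3590 bright genes, the chronic regime had 76 (2.12%) with a last hour at least 1.5-fold above the end of hypoxia and 40 (1.11%) at least 1.5-fold below it, and the cyclic regime had 107 (2.98%) above and 575 (16%) below. The 31 genes lower in the normoxia hour had a median log2 ratio of -0.69 there, 0.39 in the chronic hour and 0.07 in the cyclic hour, and 3 were lower in all 3 regimes. The 18 genes higher in the normoxia hour had medians of 0.64 there, -0.01 in the chronic hour and -0.13 in the cyclic hour, and 3 were higher in all 3. Over all bright genes the correlation of the normoxia hour with the chronic hour was -0.27 and with the cyclic hour -0.01, across genes and with no array in common.

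A test of the last hour over the 3 regimes used each regime as a block in limma, with 2 residual degrees of freedom over 13556 probe sets. With Benjamini-Hochberg adjustment at 0.05, 0 probe sets were higher (0%) and 0 lower (0%), and the smallest adjusted p was 0.989. At an unadjusted p under 0.05 there were 204 higher and 172 lower probe sets, where 678 would be the number that this threshold passes if nothing differed. For Mt2 the fitted log2 difference over the 3 regimes was 0.52 with an SE of 0.13 and a limma adjusted p of 0.989, and it was higher in 3 of 3 regimes. Mt2 was named for its normoxia ratio, which is part of this fit. Its direction in that regime was therefore fixed by the choice, and the fitted value is raised by it. For Lgals1 the fitted log2 difference was 0.25 with an SE of 0.08 and the same adjusted p, and as deposited it was higher in 3 of 3 regimes. Its normoxia log2 ratio of 0.11 became -0.04 after quantile normalization and -0.005 after loess. As a class, the 199 genes of signal 1600 or more had medians of 0.11 in the normoxia hour, 0.10 in the chronic hour and 0.25 in the cyclic hour. The test treats a response that differs between regimes as noise.

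Genes that answer to serum were mostly dim on both arrays, as were most genes, and the series holds no array of cells kept in serum. Of 41 listed immediate-early and serum response genes 32 were measured and 10 were bright, against 3590 bright genes of 7746 in all. The median log2 ratio of the list was -0.08, against 0.01 over all genes, and -0.05 after quantile normalization and after loess. None was 1.5-fold or more higher and 2 were lower, Junb and Ccn2, whereas 2.84% of all genes were higher and 5.99% lower by that measure. Fos, the AP-1 subunit, had 55.7 in Normoxia +1h and 55.6 in Normoxia. Egr1, an early growth response factor, had 35.2 in Normoxia +1h and 52.2 in Normoxia. Junb had 3.17 in Normoxia +1h and 9.01 in Normoxia, and Ccn2 (connective tissue growth factor) had 4.82 in Normoxia +1h and 11.0 in Normoxia, all near the floor. The brightest of the list were Phlda1 with 691 in Normoxia +1h and 672 in Normoxia, Dusp6, a phosphatase of ERK, with 548 in Normoxia +1h and 598 in Normoxia, and Ier3 with 430 in Normoxia +1h and 379 in Normoxia. Myc had 91.0 in Normoxia +1h and 78.6 in Normoxia.

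Genes known to go up when growth factors are withdrawn gave a median log2 ratio of 0.01 over 22 measured. At 1.5-fold 1 of them was higher and 1 lower, against 2.84% and 5.99% of all genes. Foxo1 was the one 1.5-fold or more higher, with 48.9 in Normoxia +1h and 32.4 in Normoxia, but its other probe sets gave log2 ratios of -0.37 and -0.43. Conversely, Gadd45b was the one lower, with 8.53 in Normoxia +1h and 15.2 in Normoxia, and -0.25 on its other probe set. Bcl2l11, which encodes the death factor BIM, had 149 in Normoxia +1h and 102 in Normoxia, a log2 ratio of 0.55, and its dimmer probe sets gave -0.06, 0.29 and 0.86. Sesn3 had 174 in Normoxia +1h and 127 in Normoxia, and Txnip, a brake on glucose uptake, had 186 in Normoxia +1h and 142 in Normoxia. Cdkn1b, the p27 inhibitor, had 290 in Normoxia +1h and 297 in Normoxia, and Ccng2 had 103 in Normoxia +1h and 116 in Normoxia. The 23 measured genes of sterol synthesis and uptake, which are turned on when cells lack lipid, had a median of 0.03 (0.02 after quantile normalization and 0.002 after loess), with none past 1.5-fold either way. Within that list Msmo1 had 1365 in Normoxia +1h and 1030 in Normoxia, whereas Cyp51, a neighbouring step of the same pathway, had 595 in Normoxia +1h and 740 in Normoxia.

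Cell cycle genes were measured in 2 lists, and 22 of 28 S phase genes and 22 of 31 mitosis genes were bright. Of the 28 S phase genes none was 1.5-fold or more higher and only Tyms was lower, at 17.8 in Normoxia +1h and 29.0 in Normoxia, and the median was -0.02 (-0.03 after quantile normalization and -0.05 after loess). The shares over all genes past 1.5-fold were 2.84% higher and 5.99% lower, and over bright genes 0.501% and 0.864%. Pcna, the sliding clamp of DNA replication, had 3483 in Normoxia +1h and 3073 in Normoxia, and Rrm2, a ribonucleotide reductase subunit, had 2083 in Normoxia +1h and 2066 in Normoxia. The 31 mitosis genes had a median of 0.11, which was 0.12 after quantile normalization and 0.10 after loess, and none passed 1.5-fold. Of these 31, 23 had a ratio above 0, as had 51.5% of all genes and 58.4% of bright genes. In the last hour of the hypoxic regimes the median of the mitosis genes was -0.01 in chronic and -0.20 in cyclic hypoxia. Cdc20, an activator of the anaphase-promoting complex, had 694 in Normoxia +1h and 543 in Normoxia, Plk1 had 156 in Normoxia +1h and 122 in Normoxia, and Kif11, a spindle motor, had 54.2 in Normoxia +1h and 38.6 in Normoxia, with -0.03 and 0.11 on its other probe sets. Cks1b had 1261 in Normoxia +1h and 1616 in Normoxia, while its other probe set had 836 in Normoxia +1h and 748 in Normoxia.

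Genes of the integrated stress response and the endoplasmic reticulum had a median log2 ratio of 0.12 over 28 measured, and that value was 0.13 after quantile normalization and 0.11 after loess. The last hour of the hypoxic regimes gave this list a median of -0.06 in chronic and 0.21 in cyclic hypoxia. Herpud1 and Creld2, both bright, were 1.5-fold or more higher, and the dim Sesn2 was lower. Of the 28 genes 22 were bright. By that measure 0.501% of bright genes were higher and 0.864% lower, and 2.84% and 5.99% of all genes. Sesn2 had 20.7 in Normoxia +1h and 44.6 in Normoxia, a log2 ratio of -1.11 with -0.23 on its other probe set. Herpud1, which serves the disposal of misfolded proteins, had 366 in Normoxia +1h and 243 in Normoxia, but its other probe set ran the opposite way, with 112 in Normoxia +1h and 144 in Normoxia. Hspa5, the chaperone BiP, had 2577 in Normoxia +1h and 2103 in Normoxia. Asns, which makes asparagine, had 1341 in Normoxia +1h and 1039 in Normoxia, and Ddit3 (CHOP) had 177 in Normoxia +1h and 137 in Normoxia. Dnajc3, a co-chaperone of BiP, had 176 in Normoxia +1h and 242 in Normoxia, and log2 ratios from -1.53 to 0.23 on its other 4 probe sets. On the first probe set of Herpud1 the other 4 arrays gave 647 to 1009, all above both normoxia arrays.

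The oxygen label was set beside named HIF targets. Of the 22 measured, 11 were bright in normoxia, as were 3590 of 7746 genes in all, so that count does not bear on the label. Hk2, the hexokinase induced by HIF-1, had 164 in Normoxia +1h and 165 in Normoxia, against 405 to 1279 in the 4 hypoxia arrays. Bnip3, a mitophagy receptor, had 123 in Normoxia +1h and 127 in Normoxia, against 332 to 803. Hk2 and Bnip3 were picked from the 22 and do not stand for the whole list. Stc1 was under the floor in both, with 1.81 in Normoxia +1h and 1.35 in Normoxia. It passed the filter only through its signal in the hypoxia arrays, so its low signal in normoxia is no check of the label. Of 22 measured HIF targets none was 1.5-fold or more higher in Normoxia +1h, Pfkfb3 was lower, and the median was 0.05 (0.08 after quantile normalization and after loess). Over all genes 2.84% were higher and 5.99% lower by that measure.

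Of 17 clock genes measured, 6 were bright and none of these passed 1.5-fold, while 2 of the dim ones were higher and 3 lower by that measure. Nfil3 had 15.8 in Normoxia +1h and 4.73 in Normoxia, and Cry2 had 23.4 in Normoxia +1h and 15.6 in Normoxia. Arntl, the BMAL1 gene, had 11.3 in Normoxia +1h and 30.7 in Normoxia, Nr1d1 (REV-ERB alpha) had 2.71 in Normoxia +1h and 8.23 in Normoxia, and Bhlhe41 had 9.27 in Normoxia +1h and 18.3 in Normoxia. All 5 had a mean signal under 25, the class in which the log2 ratio had an SD of 0.70 over genes and in which 9.83% lay 1.5-fold or more above and 21.7% below. Among bright clock genes Csnk1d had 661 in Normoxia +1h and 582 in Normoxia, and Nr1d2 had 178 in Normoxia +1h and 246 in Normoxia.

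The medians of the ribosomal protein and pigment lists changed sign after quantile normalization. Those of respiratory chain genes and glycolytic enzymes became smaller and stayed above 0. Cytosolic ribosomal proteins had a median log2 ratio of 0.13, with 37 of 44 higher in Normoxia +1h, but -0.02 after quantile normalization and 0.03 after loess. None was 1.5-fold or more higher, and the 3 that were lower, Rpl37, Rpl39 and Rps27, were among the few dim or moderate probe sets of the list, with Rpl37 at 392 in Normoxia +1h and 636 in Normoxia. By that measure 2.84% of all genes were higher and 5.99% lower, and of bright genes 0.501% and 0.864%. Pigment and melanosome genes had a median of 0.12 as deposited, -0.01 after quantile normalization and 0.01 after loess, with 0 of 17 past 1.5-fold. As deposited, 9 of the 17 were higher in Normoxia +1h. Respiratory chain genes had 0.10, and 0.04 after quantile normalization and after loess, with 28 of 37 higher as deposited and 0 past 1.5-fold. Glycolytic enzymes had 0.13, 0.08 after quantile normalization and 0.075 after loess, with 12 of 16 higher as deposited and 0 past 1.5-fold. Ldha, lactate dehydrogenase, had 2078 in Normoxia +1h and 1716 in Normoxia. Among 28 proteasome subunits, with a median of 0.05 (0.03 after quantile normalization and -0.003 after loess), Psmc4, an ATPase of the cap, was 1.5-fold higher, at 866 in Normoxia +1h and 570 in Normoxia, but its other probe set had 528 in Normoxia +1h and 501 in Normoxia.

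**Figure D5:**
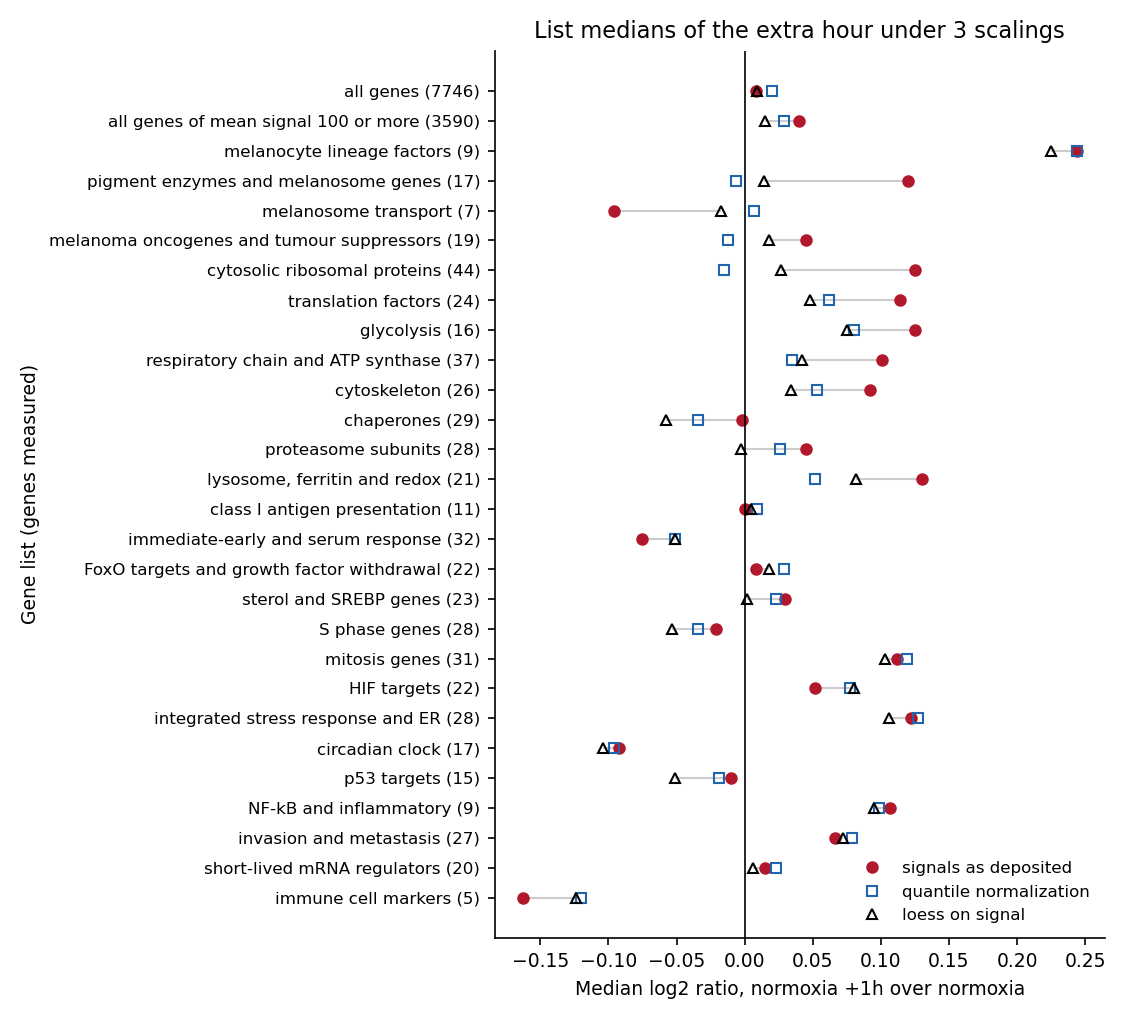
Median log2 ratio of Normoxia +1h over Normoxia for each gene list with at least 5 measured genes (number in brackets), with circles for signals as deposited, squares after quantile normalization and triangles after loess. Ribosomal protein and pigment genes lie at 0.13 and 0.12 as deposited and near 0 under the other scalings, whereas mitosis and stress response genes stay between 0.10 and 0.13 under all 3. Other lists also move little, such as melanocyte lineage factors (0.244, 0.244 and 0.225) and NF-kB and inflammatory genes (0.107, 0.099 and 0.095), in the same order of scalings.

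The largest ratios of all were in dim genes. With both arrays above the floor of 2.1, Ears2, a mitochondrial glutamyl-tRNA synthetase, had 16.1 in Normoxia +1h and 2.42 in Normoxia, a log2 ratio of 2.74. Hcrt, the neuropeptide gene for orexin, had 2.43 in Normoxia +1h and 21.3 in Normoxia, a log2 ratio of -3.13. The others of the 8 highest were Dhx38, Cplx1, Bok, Klf1, Nes, Tubb4a and Zap70, and of the 8 lowest Grhl2, Zfp160, Abcg4, Pth2, Kiss1r, Gria2 and Gria4. Several of them, such as the glutamate receptor genes Gria2 and Gria4, are known for nerve cells and not for melanocytes. Their signals on the 6 arrays crossed freely: Dhx38 had 22.4 in Normoxia +1h and 3.93 in Normoxia, and 4.16 to 30.4 in the other 4. Cplx1 had a log2 ratio of 2.40 on one probe set and -0.70 on another, Nes 2.03 and 0.07, and Grhl2 -2.77 and -2.91.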

How the data were processed

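RNA from B16 cells was hybridised to Affymetrix mouse arrays, 1 per group. The authors deposited linear signal intensities of 22690 probe sets, made with GCOS per the submitters' processing notes, whose version and algorithm are not given in the sources used here. They were used without further scaling. Signals were floored at 2.1, the 20th percentile of all values, before log2 was taken. Control probe sets (64) and probe sets with a mean over 6 arrays under the 40th percentile (8.33) were left out, leaving 13556. The platform annotation named 1 gene for 20393 probe sets, several for 691 and none for 1606, and 20364 had a current symbol.

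The genes named were the 30 brightest, the 12 highest and 12 lowest ratios among bright genes, the 8 highest and 8 lowest among dim genes with both arrays above the floor, and members of 29 gene lists. The members and lists were chosen with earlier results of these data known. Sequences came from RefSeq (GRCm38.p6).

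The last hour was tested over the 3 regimes with limma 3.58.1 in R 4.3.3 (additive fit of regime and collection, intensity trend, Benjamini-Hochberg adjustment), tested on simulated data beforehand. Alternatives were quantile normalization, median centring, a floor of 16, log2(value + 8) without a floor, no filter, the median over probe sets, no trend, leaving out each array and, chosen after seeing the data, loess on signal. Array signals carry no counts, so the number of arrays limits the precision.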

Additional observations from a re-analysis of the deposited data

How the results depend on the processing

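The counts of dim genes depended on how low signals were treated. Genes 2-fold or more higher in Normoxia +1h numbered 67 as reported, 11 with a floor of 16, 14 with log2(value + 8) and 521 with no filter, and those lower numbered 145, 25, 27 and 988 under the same settings. Among counts, 46 values lay within 1.5 times of the reported ones and those 6 did not. The 46 include the values of 0 from the test over 3 regimes, set against a reported 0. The counts of bright genes were among the 46. In the limma test over 3 regimes 0 probe sets passed in each direction under all 12 alternatives, with smallest adjusted p-values from 0.213 to 1. Leaving out 1 array takes its whole regime out of the comparison, and the run on hypoxic regimes only holds no normoxia array. These runs therefore say little on how steady the 0 is. List medians moved by less than the SD over genes under all alternatives run (145 values), and 13 of these values had the other sign. Of the values for named genes 331 were computed under alternatives and 40 had the other sign, 22 of them on another probe set of the gene, 12 after quantile normalization and 6 after loess. Among the genes 1.5-fold or more off, 8 values changed sign, all on another probe set: -0.009 and -0.240 for Celf2, -0.70 for Cplx1, -0.031 and -0.176 for Deptor, 0.607 and 0.016 for Kpnb1, and 0.30 for Pdcl. The cause was not tested. Replicates could not be paired because each group had 1 array, and regime was the block in the test over 3 regimes. Signal over background limits the genes under 25 units, where the spread between the arrays was widest.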

Other observations

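Other very bright genes, chosen after their values were seen, differed more than the 199 genes of signal 1600 or more did as a class (SD 0.13 in log2 ratio). Manf, a secreted protein of the endoplasmic reticulum, had 1902 in Normoxia +1h and 1325 in Normoxia, a log2 ratio of 0.52, and 1803 to 2938 in the other 4 arrays. Cited1, a transcriptional co-regulator known from melanocytes, had 2525 in Normoxia +1h and 1929 in Normoxia, a log2 ratio of 0.39, and 2479 to 2745 in the other 4 arrays. Atp5b, a subunit of ATP synthase, had 2351 in Normoxia +1h and 1818 in Normoxia. In these 3 genes Normoxia was the lowest of the 6 arrays. Ndufa13 had 3423 in Normoxia +1h and 2644 in Normoxia, a log2 ratio of 0.37. Its lowest array was cyclic hypoxia without the last hour, at 2622. Hnrnpab, an RNA-binding protein, had the highest ratio of the class, 0.53, but its other 6 probe sets ran from -0.38 to 0.13. At the low end Ctsz, a lysosomal cathepsin, had 1625 in Normoxia +1h and 1945 in Normoxia, a log2 ratio of -0.26, with -0.14 and 0.36 on its other probe sets, and its last hour gave 0.54 in chronic and 0.65 in cyclic hypoxia.

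Invasion genes, 27 of them measured, had a median log2 ratio of 0.07 with 1 gene 1.5-fold or more higher and 2 lower, against 2.84% and 5.99% of all genes. Sparc, a matrix glycoprotein made by melanomas, had 1698 in Normoxia +1h and 1333 in Normoxia, but its other probe set had 925 in Normoxia +1h and 1014 in Normoxia. The integrin chain Itgav had 409 in Normoxia +1h and 570 in Normoxia, and the membrane protease Mmp14 had 258 in Normoxia +1h and 323 in Normoxia. Cdh2 (N-cadherin) had 87.0 in Normoxia +1h and 127 in Normoxia. The genes past 1.5-fold were dim: Cdh13 had 29.2 in Normoxia +1h and 16.6 in Normoxia, Plat, the tissue plasminogen activator, had 12.6 in Normoxia +1h and 26.1 in Normoxia, and Mmp2 had 16.7 in Normoxia +1h and 25.3 in Normoxia, with 0.15 as the log2 ratio of its other probe set.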
